A study of Equus asinus with 12 samples.

Results

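The 10 genes described here encode proteins of the connective tissue that surrounds muscle fibres and carries their force to tendon: the small leucine-rich proteoglycans DCN (decorin), BGN (biglycan), ASPN (asporin), LUM (lumican), FMOD (fibromodulin) and OGN (osteoglycin, also called mimecan), the thrombospondins THBS4 and COMP (cartilage oligomeric matrix protein), the adhesive glycoprotein FN1 (fibronectin) and the membrane glycoprotein TNMD (tenomodulin). They were chosen by gene name, and for a name with several rows the row with the highest mean was used. All 10 were found among 27084 loci, and 9 of them passed the low-value filter along with 12408 loci in all. TNMD did not pass, because it reached 1 FPKM (fragments per kilobase of transcript, scaled to the mapped fragments of the library) in only 2 libraries.

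The study profiled skeletal muscle RNA of 24-month-old Dezhou donkeys (Equus asinus) of the Sanfen and Wutou strains. The 12 libraries form 4 groups of 3: Sanfen longissimus dorsi, a long muscle of the back, Sanfen gluteal muscle of the rump, Wutou longissimus dorsi and Wutou gluteal muscle. The design text gives 6 donkeys for the 12 libraries, no label ties a library to an animal, and no sex, feed or treatment was used here. The p-values below therefore measure the spread between these libraries, and the 2 muscles of a donkey are not separate animals.

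Small leucine-rich proteoglycans have a protein core that binds collagen fibrils and, in most members, chains of chondroitin, dermatan or keratan sulfate. Decorin and biglycan carry chondroitin or dermatan sulfate chains, whereas fibromodulin and lumican carry keratan sulfate and bind collagen at overlapping sites; the group regulates the width and spacing of fibrils, and decorin and biglycan also bind TGF-beta. THBS4 and COMP are pentameric thrombospondins that bind collagens and other matrix proteins and are abundant in tendon, COMP in cartilage as well, and tenomodulin is a marker of tendon cells and fascia. In skeletal muscle most of these proteins come from fibroblasts of the endomysium, perimysium and the ends of the fibres, so a muscle sample holds them together with a large excess of fibre RNA.

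Summed FPKM over all loci was between 214564 and 319767 per library, and read totals were not given, so depth is unknown and no interval from counts can be given. In bulk tissue, fewer cells of a type and less RNA per cell cannot be told apart. Some libraries stand apart for these genes. Sanfen gluteal replicate 1 was the highest of the 12 libraries for 6 of the 10 genes (BGN, ASPN, THBS4, FN1, TNMD and COMP), and Sanfen longissimus replicate 1 was the highest for 3 (DCN, LUM and OGN). Where leaving out 1 library moved a value by more than 1.5 times, the value without it is given beside the result or, for small differences, as a range.

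**Figure D1:**
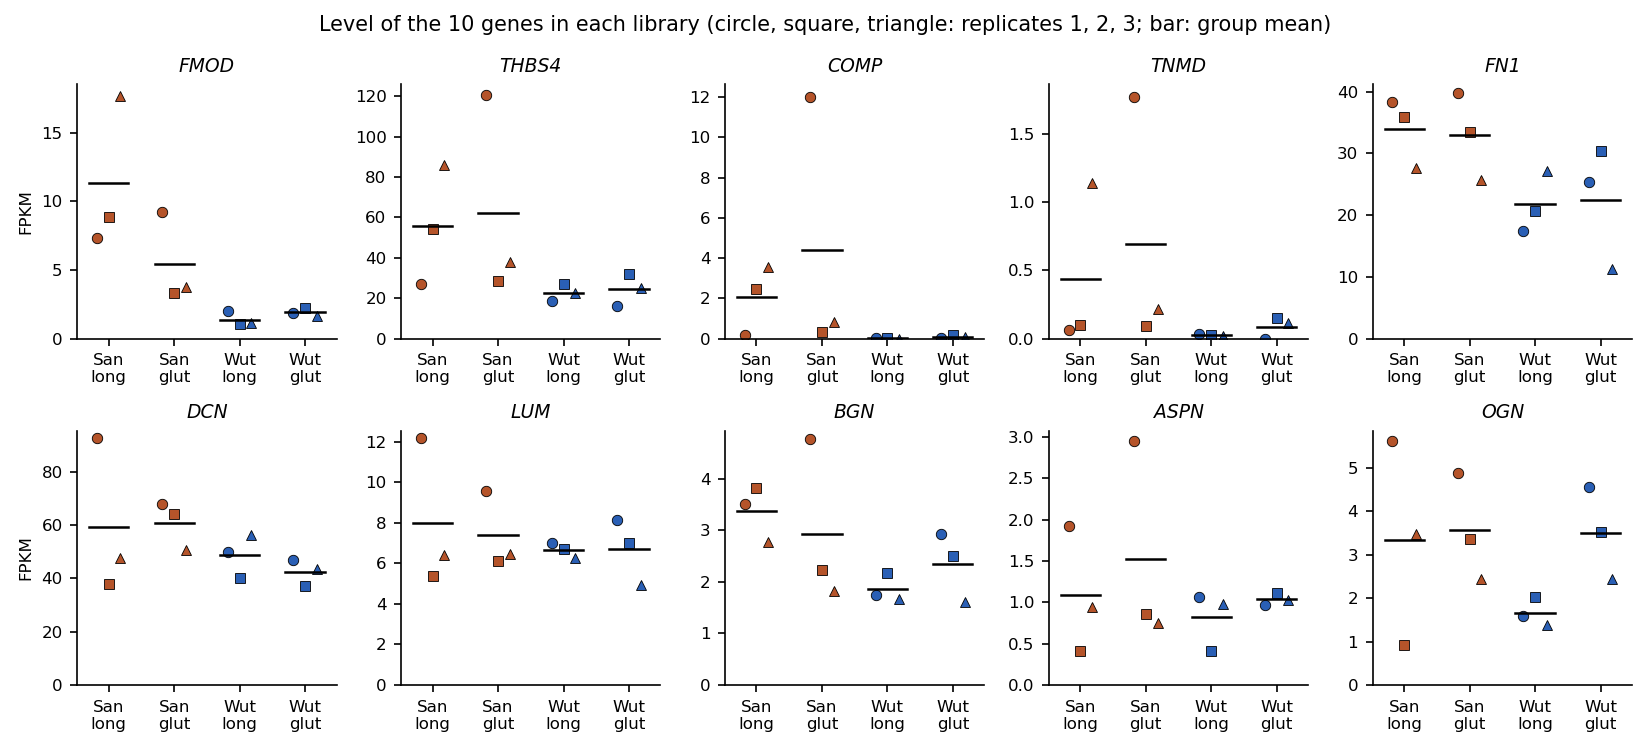
Level of each of the 10 genes in each library, in FPKM on a linear axis that starts at 0 and differs between panels; orange marks Sanfen and blue Wutou, circles, squares and triangles mark replicates 1, 2 and 3, and bars are means of 3 libraries. All 6 Sanfen libraries lie above all 6 Wutou libraries for FMOD and for COMP, while LUM, ASPN and OGN overlap between the strains in both muscles.

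On the per-length FPKM scale DCN was the most abundant of the 10 genes, with a mean of 52.8 FPKM over the 12 libraries. THBS4 followed with 41.3 FPKM and FN1 with 27.7 FPKM. LUM had a mean of 7.18 FPKM, FMOD 4.999 FPKM, OGN 3.02 FPKM, BGN 2.63 FPKM, COMP 1.64 FPKM, ASPN 1.12 FPKM and TNMD 0.310 FPKM. DCN was the leading gene in 9 libraries, and THBS4 led in Sanfen longissimus replicates 2 and 3 and Sanfen gluteal replicate 1. The order of the means hides different spreads: DCN and THBS4 overlapped across libraries, with DCN between 37.2 and 92.5 FPKM and THBS4 between 16.3 and 120.6 FPKM. LUM varied least over the 12 libraries, with a coefficient of variation of 27.6%, followed by DCN with 29.9%, FN1 with 30.7% and BGN with 37.5%. The most variable were COMP with 211%, TNMD with 179%, FMOD with 99.4% and THBS4 with 76.1%. The thrombospondins, TNMD and FMOD were thus the uneven ones across libraries, and DCN, LUM, FN1 and BGN the steadier ones.

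Of the 9 tested genes FMOD had the smallest p for the strain difference in both muscles. In longissimus muscle it was at 7.34, 8.86 and 17.7 FPKM in the 3 Sanfen libraries. In the 3 Wutou longissimus libraries it was at 1.97, 1.03 and 1.12 FPKM. The groups did not overlap, and the Sanfen mean of 11.3 ± 5.58 FPKM (SD, n = 3) was 8.23 times the Wutou mean of 1.37 ± 0.522 FPKM (SD, n = 3). On the log2(FPKM + 1) scale the difference, Wutou minus Sanfen, was -2.30 with a standard error of 0.35 and a 95% interval from -3.07 to -1.54. It ranked 4 of the 12408 loci by p in that comparison, with an unadjusted p of 3.2e-05 in limma, and did not pass the threshold of 0.05 after Benjamini-Hochberg adjustment (limma adjusted p = 0.0977). In limma fits with other settings the adjusted p ranged from 0.0223 to 0.441: it passed with a pseudocount of 0.1 (adjusted p = 0.0434, log2 difference -2.90) and without Sanfen gluteal replicate 1 (adjusted p = 0.0223), a library that is not itself in the comparison but enters the estimate of the spread.

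In gluteal muscle FMOD was at 9.18, 3.28 and 3.78 FPKM in Sanfen. The Wutou gluteal libraries held 1.89, 2.23 and 1.63 FPKM. Again every Sanfen library lay above every Wutou library, and the ratio of the means, 5.41 ± 3.27 to 1.92 ± 0.303 FPKM (SD, n = 3 each), was 2.82. The log2 difference was -1.03 with a standard error of 0.35 and limma adjusted p = 0.963. Without Sanfen gluteal replicate 1 it was -0.64. Averaged over both muscles the log2 difference was -1.67 with a standard error of 0.29, second of all loci by unadjusted p, and limma adjusted p = 0.453 when same-numbered libraries of a strain were treated as a random replicate block and 0.159 when they were not. All 6 Sanfen libraries stood above all 6 Wutou libraries, and the lowest Sanfen library (3.28 FPKM) was above the highest Wutou library (2.23 FPKM).

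COMP, the thrombospondin named for cartilage and also found in tendon, was near the lower limit of the table in Wutou and uneven in Sanfen. In Sanfen longissimus muscle it was at 0.191, 2.48 and 3.54 FPKM, and in Sanfen gluteal muscle at 12.02, 0.331 and 0.806 FPKM. In Wutou longissimus muscle it was at 0.0455 and 0.0186 FPKM in replicates 1 and 2 and is listed at 0 in replicate 3, and in Wutou gluteal muscle it was at 0.0196, 0.157 and 0.0992 FPKM. Every Sanfen library exceeded every Wutou library, but the Sanfen range, 0.191 to 12.02 FPKM, was far wider than the gap between the strains. COMP reached 1 FPKM in 3 libraries, all Sanfen, and so entered the tests only through the strain in which it is high. Its log2 difference was -1.38 in longissimus muscle (limma adjusted p = 0.854), -1.53 in gluteal muscle (limma adjusted p = 0.963) and -1.46 averaged over muscles (limma adjusted p = 0.793). With a pseudocount of 0.1 these were -3.54, -3.20 and -3.37, so their size depends on the constant added to low values. Without Sanfen gluteal replicate 1 the gluteal difference was -0.51 and the averaged one -0.89.

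THBS4, the other pentameric thrombospondin, followed the same libraries at a higher level. Sanfen longissimus muscle held 27.0, 54.1 and 85.8 FPKM and Wutou longissimus muscle 18.5, 27.1 and 22.5 FPKM. Sanfen gluteal muscle held 120.6, 28.6 and 37.9 FPKM and Wutou gluteal muscle 16.3, 32.0 and 24.9 FPKM. The strains overlapped narrowly in each muscle, with 4 of the 6 Sanfen libraries above all 6 Wutou libraries. The ratio of Sanfen to Wutou means was 2.45 in longissimus muscle and 2.55 in gluteal muscle, with Sanfen means of 55.6 ± 29.4 and 62.4 ± 50.6 FPKM and Wutou means of 22.7 ± 4.26 and 24.4 ± 7.84 FPKM (SD, n = 3 each). The log2 difference was -1.13 in longissimus muscle (limma adjusted p = 0.854), -1.08 in gluteal muscle (limma adjusted p = 0.963) and -1.10 averaged over muscles (limma adjusted p = 0.793). Without Sanfen longissimus replicate 3 the longissimus difference was -0.74, without Sanfen gluteal replicate 1 the gluteal difference was -0.47, and the Sanfen group was the more variable one in both muscles.

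TNMD, the tendon cell marker, was low throughout. In Sanfen longissimus muscle it was at 0.0658, 0.101 and 1.14 FPKM, and in Sanfen gluteal muscle at 1.77, 0.0903 and 0.219 FPKM. In Wutou longissimus muscle it was at 0.0325, 0.0260 and 0.0194 FPKM, and in Wutou gluteal muscle it is listed at 0 in replicate 1 and was at 0.151 and 0.111 FPKM in replicates 2 and 3. The 2 libraries above 1 FPKM, Sanfen longissimus replicate 3 and Sanfen gluteal replicate 1, were also the 2 with the highest COMP and THBS4. With no filter on low values the strain difference gave limma adjusted p = 0.941 in longissimus muscle and 0.908 in gluteal muscle.

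FN1, the adhesive glycoprotein that links cells to collagen and assembles into pericellular fibrils, differed less but more evenly between libraries. Sanfen longissimus muscle held 38.2, 35.8 and 27.6 FPKM and Wutou longissimus muscle 17.5, 20.6 and 27.2 FPKM. Sanfen gluteal muscle held 39.7, 33.5 and 25.6 FPKM and Wutou gluteal muscle 25.4, 30.4 and 11.3 FPKM. The longissimus groups did not overlap, though replicate 3 of each strain differed by less than 1 FPKM, and the gluteal groups did overlap. Sanfen means were 1.56 times the Wutou means in longissimus muscle and 1.47 times in gluteal muscle. The log2 difference was -0.62 in longissimus muscle (limma adjusted p = 0.854), -0.63 in gluteal muscle (limma adjusted p = 0.963) and -0.63 averaged over muscles (limma adjusted p = 0.812). Leaving out Wutou gluteal replicate 3, the lowest of the 12 libraries, moved the gluteal difference to -0.22 and the averaged one to -0.40.

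Among the chondroitin or dermatan sulfate proteoglycans, DCN, which binds collagen fibrils and TGF-beta, was at 92.5, 37.8 and 47.6 FPKM in Sanfen longissimus muscle and at 50.1, 40.0 and 56.1 FPKM in Wutou longissimus muscle. These groups overlapped, and Sanfen longissimus replicate 1 alone stood high. In gluteal muscle DCN was at 67.8, 64.3 and 50.5 FPKM in Sanfen and at 47.0, 37.2 and 43.4 FPKM in Wutou, without overlap, and the Sanfen mean was 1.43 times the Wutou mean. Its log2 difference was -0.19 in longissimus muscle, where leaving out each library gave values from -0.45 (without Sanfen longissimus replicate 2) to 0.18 (without Sanfen longissimus replicate 1), and -0.50 in gluteal muscle (limma adjusted p = 0.963).

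BGN, the closest relative of decorin, showed the opposite arrangement. In longissimus muscle it was at 3.50, 3.82 and 2.78 FPKM in Sanfen and at 1.74, 2.17 and 1.67 FPKM in Wutou, with no overlap and a ratio of means of 1.81. In gluteal muscle it was at 4.77, 2.23 and 1.82 FPKM in Sanfen and at 2.93, 2.50 and 1.62 FPKM in Wutou, which overlap. Its log2 difference was -0.61 in longissimus muscle (limma unadjusted p = 0.0322, adjusted p = 0.854) and -0.18 in gluteal muscle, where leaving out each library gave values from -0.39 (without Sanfen gluteal replicate 3) to 0.13 (without Sanfen gluteal replicate 1). Over both muscles it averaged -0.39, and -0.24 without Sanfen gluteal replicate 1. ASPN, a relative of decorin that lacks the glycosaminoglycan attachment site, was between 0.408 and 2.94 FPKM over the 12 libraries. Its log2 difference of -0.15 in longissimus muscle became 0.12 without Sanfen longissimus replicate 1 and 0.02 without Wutou longissimus replicate 2, and its difference of -0.20 in gluteal muscle became 0.17 without Sanfen gluteal replicate 1.

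LUM, which like fibromodulin carries keratan sulfate and belongs to the same class of the family, had similar levels in the strains, apart from 1 high Sanfen library in each muscle. It was at 12.2, 5.38 and 6.42 FPKM in Sanfen longissimus muscle and at 7.03, 6.70 and 6.26 FPKM in Wutou longissimus muscle. In Sanfen gluteal muscle LUM was at 9.56, 6.13 and 6.46 FPKM and in Wutou gluteal muscle at 8.16, 7.02 and 4.94 FPKM. The strains overlapped in both muscles, and 4 of the 6 Sanfen libraries lay within the Wutou range. The log2 difference was -0.16 in longissimus muscle (95% interval -0.75 to 0.44) and -0.12 in gluteal muscle (95% interval -0.72 to 0.47). These became 0.15 without Sanfen longissimus replicate 1, and 0.06 without Sanfen gluteal replicate 1 or 0.05 without Wutou gluteal replicate 3.

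OGN, a proteoglycan of bone and connective tissue, was at 5.61, 0.931 and 3.47 FPKM in Sanfen longissimus muscle and at 1.59, 2.02 and 1.38 FPKM in Wutou longissimus muscle. It was at 4.87, 3.37 and 2.43 FPKM in Sanfen gluteal muscle and at 4.56, 3.52 and 2.44 FPKM in Wutou gluteal muscle. The 2 gluteal groups were nearly alike in mean and range, with a ratio of means of 1.01, and Sanfen longissimus held both the highest and the lowest of the 12 libraries. The log2 difference between strains was -0.54 in longissimus muscle (limma adjusted p = 0.860) and -0.01 in gluteal muscle, where rescaling the libraries by their median ratio gave 0.09 and quantile normalization gave 0.07. The longissimus difference was -0.15 without Sanfen longissimus replicate 1 and -1.03 without Sanfen longissimus replicate 2.

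**Figure D2:**
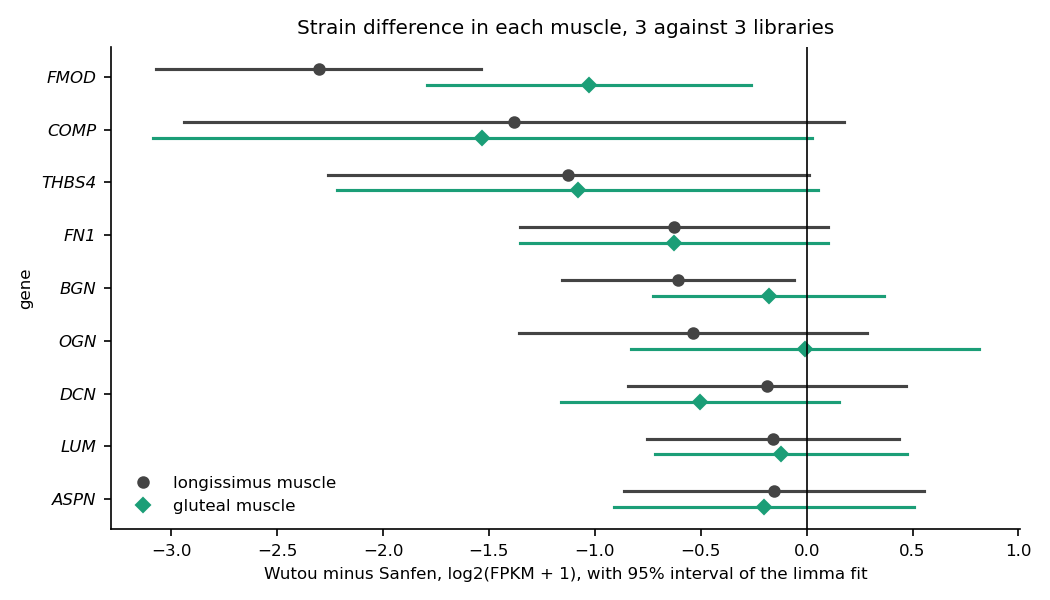
Difference Wutou minus Sanfen for the 9 tested genes in each muscle, on the log2(FPKM + 1) scale, as the limma estimate (point) with its 95% interval (line) from 3 against 3 libraries. Every point is below 0, the OGN point in gluteal muscle turns above 0 under either rescaling of the libraries, and only the FMOD intervals and the BGN interval in longissimus muscle lie wholly below 0.

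As a set, 9 of the 9 tested genes had lower fitted levels in Wutou than in Sanfen in longissimus muscle, with a median log2 difference of -0.61, and 0 passed an adjusted p of 0.05 in limma. Over all 12408 loci 59.3% had lower fitted levels, the median was -0.06, and 0.0161% passed. In gluteal muscle 9 of 9 were lower, 8 of 9 after either rescaling because OGN turned, with a median of -0.50, and 0 passed; over all loci 65.8% were lower, the median was -0.09, and 0.00806% passed. After median-of-ratios rescaling 50.5% of all loci were lower in longissimus muscle and 51.1% in gluteal muscle. At an unadjusted limma p under 0.05 there were 2 of the 9 genes in longissimus muscle (FMOD and BGN), against 5.52% of all loci, and 1 in gluteal muscle (FMOD), against 4.86%. Averaged over muscles 0 of the 9 passed in limma, as did 0% of all loci, and 4 (FMOD, THBS4, COMP and FN1) had an unadjusted p under 0.05, against 5.97% of all loci. These counts, and those by ranges below, describe the tested genes and are no test of the set. The genes were listed with earlier results of these data known, and COMP reached the filter only through Sanfen libraries.

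Counted by ranges, 4 of the 9 tested genes (FMOD, BGN, FN1 and COMP) had all 3 Wutou longissimus libraries below all 3 Sanfen ones, as did 7.92% of all loci. In gluteal muscle 3 of 9 (FMOD, DCN and COMP) did, as did 8.68% of all loci. Over both muscles 2 of 9 (FMOD and COMP) had all 6 Wutou libraries below all 6 Sanfen libraries, as did 0.451% of all loci. COMP had to be higher in Sanfen to be tested at all, so its place in these 3 counts says nothing beyond its values; without it they are FMOD, BGN and FN1, then FMOD and DCN, then FMOD alone. How many genes kept a lower fitted level depended on single libraries: without Sanfen longissimus replicate 1 it was 6 of 9 in longissimus muscle, and without Wutou longissimus replicate 2 it was 8 of 9. In gluteal muscle it was 5 of 9 with a median of -0.42 without Sanfen gluteal replicate 1, and 7 of 9 with a median of -0.22 without Wutou gluteal replicate 3. FMOD, COMP, THBS4 and FN1 stayed lower in Wutou in both muscles when any 1 library was left out.

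Between the muscles the 9 tested genes were split in direction, and the split moved with single libraries. In Sanfen 5 of the 9 tested genes had higher fitted levels in gluteal than in longissimus muscle and 4 lower, with log2 differences from -0.96 to 0.24; over all loci 32.4% were lower. Of the 9 genes 0 passed in limma (0.0242% of all loci did), 1 had an unadjusted p under 0.05, against 3.57% of all loci, and 0 had groups that did not overlap, against 7.54% of all loci. In Wutou 6 were higher and 3 lower, with differences from -0.19 to 0.74; over all loci 41.4% were lower. Again 0 passed, as did 0% of all loci, and 0 had an unadjusted limma p under 0.05, against 5.68% of all loci. Averaged over the strains 4 were higher and 5 lower, against 34.1% lower over all loci. There 0 passed in limma, as did 0% of all loci, 0 had an unadjusted p under 0.05, against 6.56% of all loci, and 0 of 9 had 6 gluteal libraries apart from 6 longissimus ones, against 0.387% of all loci. Without Sanfen gluteal replicate 3, 7 of 9 were higher in gluteal muscle in Sanfen and 8 of 9 averaged over strains. Without Sanfen gluteal replicate 1, 7 of 9 were lower in Sanfen and averaged over strains, and without Sanfen longissimus replicate 2, 7 of 9 were lower in Sanfen. Without Wutou gluteal replicate 3, 8 of 9 were higher in Wutou and 7 of 9 averaged over strains. After median-of-ratios rescaling 5 of 9 were lower in Sanfen, 4 in Wutou and 6 averaged over strains, against 48.7%, 50.3% and 49.9% of all loci.

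OGN was the 1 gene whose muscle groups did not overlap in Wutou, where 12.9% of all loci had groups apart in either direction. Its Wutou gluteal mean, 3.51 ± 1.06 FPKM (SD, n = 3), was 2.11 times the longissimus mean of 1.67 ± 0.324 FPKM (SD, n = 3). The log2 difference, gluteal minus longissimus, was 0.74 in Wutou (limma adjusted p = 0.870) and 0.47 averaged over strains (limma adjusted p = 0.775), the latter 0.22 without Sanfen longissimus replicate 2. FMOD differed in the other direction and in the other strain: its Sanfen gluteal mean was 0.480 times the Sanfen longissimus mean, with a log2 difference of -0.96 (limma unadjusted p = 0.0184, adjusted p = 1), which was -0.61 without Sanfen longissimus replicate 3 (limma unadjusted p = 0.0922). In Wutou the FMOD difference was 0.32 (limma adjusted p = 0.943), and 0.49 without Wutou longissimus replicate 1. The difference between those muscle contrasts was 1.28 with a standard error of 0.50 (limma unadjusted p = 0.0249, adjusted p = 0.9998). Leaving out each library moved it between 0.93 and 1.67 and its unadjusted limma p between 0.00213 and 0.0646, so that p also depends on single libraries. FMOD was the 1 of the 9 genes with an unadjusted p under 0.05 for that difference, against 2.595% of all loci, 0 passed, and 0.00806% of all loci passed.

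The 10 genes did not vary as a single unit across the libraries. On the log2(FPKM + 1) scale THBS4 and COMP had the highest Pearson r over the 12 libraries, r = 0.956, with Spearman rho = 0.867. Their r was 0.870 without the 2 libraries farthest from the median of THBS4, and 0.926 for deviations from the group means. COMP reached 1 FPKM in only 3 libraries, all Sanfen, so its Pearson r values may rest mainly on those. By rank the closest pair was FMOD and COMP (rho = 0.944). Without the 2 libraries farthest from the median of the first gene it was BGN and OGN (0.90, against r = 0.447 with all 12). FMOD followed both THBS4 and COMP. Its r with THBS4 was 0.809 (rho = 0.762, 0.652 without the 2 farthest libraries, 0.805 within groups), and its r with COMP was 0.786 (rho = 0.944, 0.769 and 0.858). Among the proteoglycans, r was 0.726 for LUM and OGN (rho = 0.643, 0.499 without the 2 farthest libraries), 0.690 for ASPN and OGN (rho = 0.615, 0.488) and 0.720 for LUM and ASPN (rho = 0.594, 0.25). DCN had r = 0.721 with LUM (rho = 0.364, 0.08) and 0.695 with ASPN (rho = 0.399, 0.350). The relations of LUM with ASPN and of DCN with LUM and ASPN thus rest on the 2 libraries farthest from the median of LUM or DCN. With all 12 libraries, r within groups was 0.858 for LUM and OGN, 0.678 for ASPN and OGN and 0.750 for LUM and ASPN. It was 0.744 for DCN and LUM and 0.739 for DCN and ASPN. BGN had r = 0.739 with FN1 (rho = 0.790, 0.662), 0.698 with FMOD (rho = 0.699, 0.742) and 0.714 with COMP (rho = 0.608, 0.246), the last resting on the 2 farthest libraries. The abundant fibrillar proteoglycan DCN and the thrombospondins were nearly unrelated, with r = 0.08 for DCN and THBS4 and 0.145 for DCN and COMP, and LUM and THBS4 had r = 0.08 as well. These are descriptions of 12 libraries that share 6 donkeys and a common normalization, so no p-value is given for the 36 pairs.

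**Figure D3:**
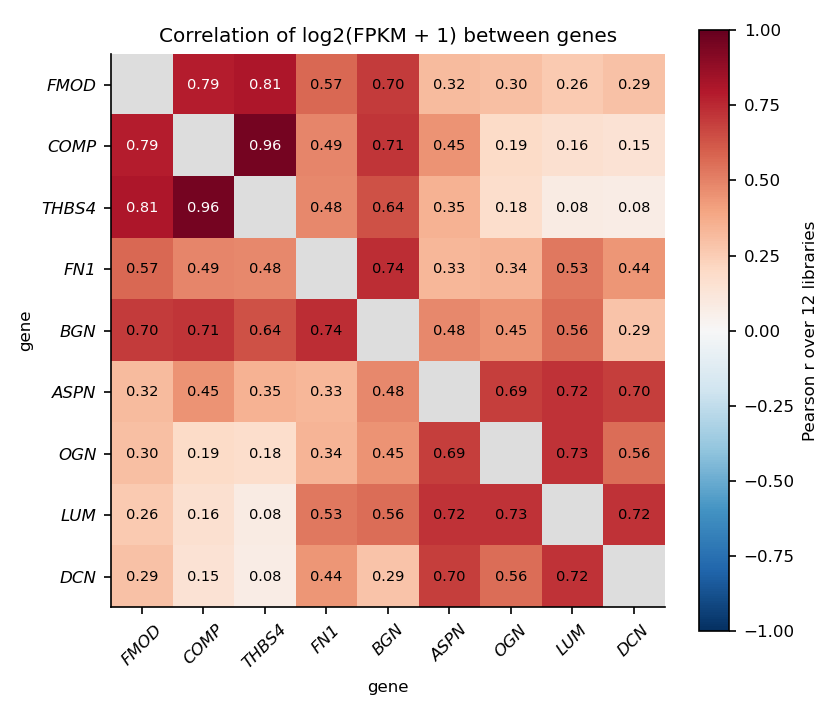
Pearson correlation of log2(FPKM + 1) between each pair of the 9 tested genes over the 12 libraries, on a colour scale of r. The highest values are among THBS4, COMP and FMOD, from 0.786 to 0.956; several pairs that include DCN, LUM, ASPN, OGN or BGN lie near 0.7, and DCN is near 0 with THBS4.

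Among all tested symbols, those with the profile most like FMOD over the 12 libraries were PDCD7 (r = 0.910), PUS7 (r = 0.902), TIPARP (r = 0.865), CYTH1 (r = 0.864) and COL12A1 (r = 0.863, rho = 0.916). Those most like the mean standardised profile of the 9 tested genes were ITGA9 (r = 0.958), CFLAR (r = 0.951), COL12A1 (r = 0.925), LTBP2 (r = 0.916) and CCAR1 (r = 0.915). COL12A1, a fibril-associated collagen, is in both sets, and 3 of these genes encode matrix proteins or a matrix receptor: COL12A1, LTBP2, a protein of elastic microfibrils, and the integrin chain ITGA9.

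Ratios within a library do not depend on how libraries were scaled to one another. The ratio of FMOD to LUM, the other keratan sulfate proteoglycan, was 0.603, 1.65 and 2.75 in Sanfen longissimus muscle and 0.961, 0.536 and 0.584 in Sanfen gluteal muscle. It was 0.281, 0.154 and 0.178 in Wutou longissimus muscle and 0.232, 0.318 and 0.330 in Wutou gluteal muscle. All 6 Sanfen libraries were above all 6 Wutou libraries. Relative to DCN, 5 of the 6 Sanfen libraries were above all Wutou libraries: the ratio was between 0.0511 and 0.372 in Sanfen and between 0.0199 and 0.0602 in Wutou. The ratio of FMOD to COL1A1, the main chain of collagen type I, again put 5 of 6 Sanfen libraries above all Wutou libraries, with Sanfen longissimus muscle at 0.712, 0.919 and 0.945 and Wutou longissimus muscle at 0.302, 0.115 and 0.101. For THBS4, 3 of 6 Sanfen libraries were above all Wutou libraries relative to DCN, 4 relative to LUM and 1 relative to COL1A1. COL1A1 was outside the naming rule and was chosen after its values were seen.

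**Figure D4:**
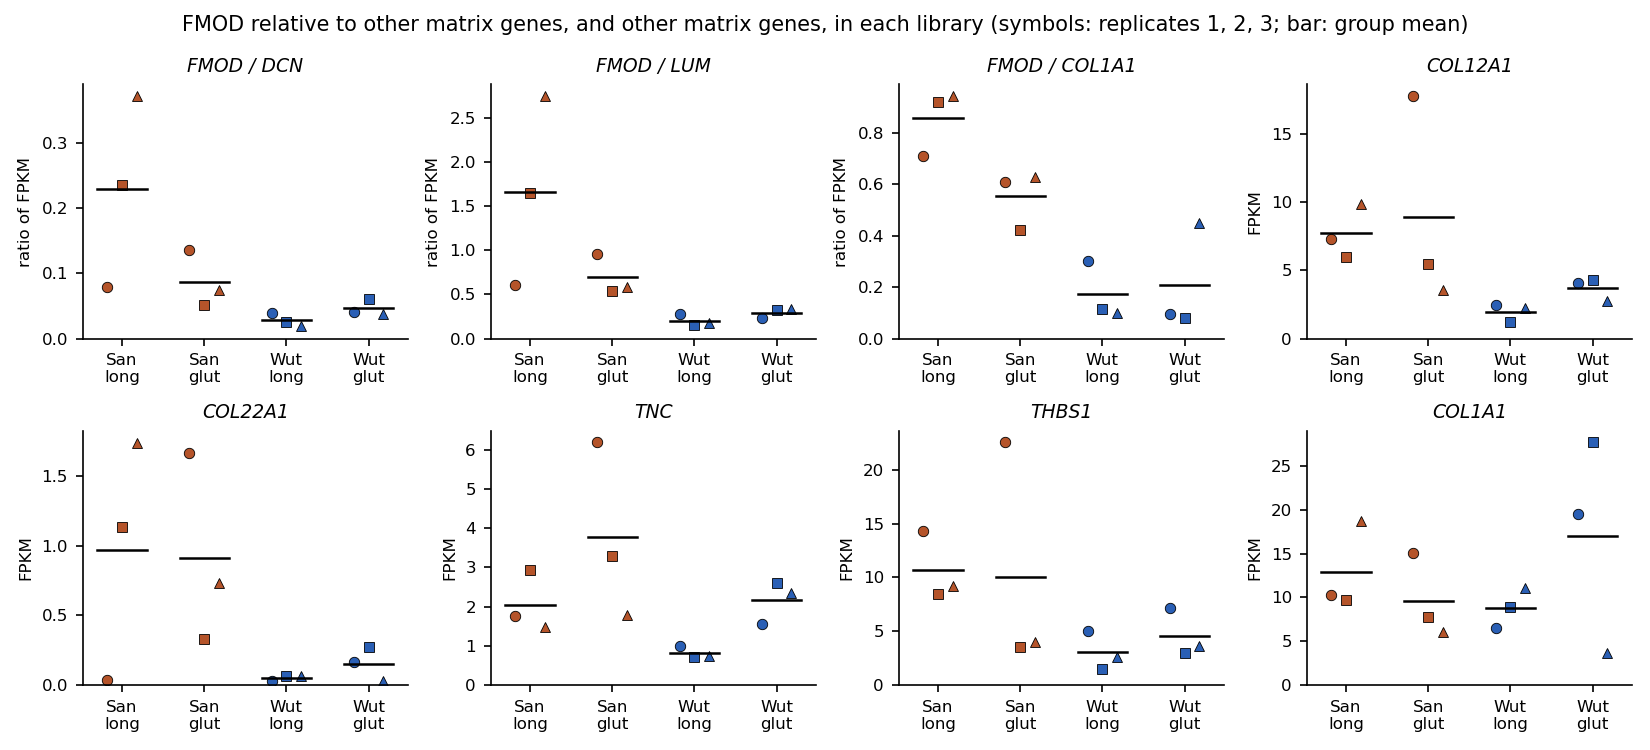
Ratios of FMOD to DCN, LUM and COL1A1 within each library, and levels in FPKM of further matrix genes, on linear axes that start at 0; colours and symbols as strain and replicate, bars as means of 3 libraries. The ratio of FMOD to LUM is at least 0.536 in Sanfen and at most 0.330 in Wutou, and COL12A1 and THBS1 are highest in Sanfen gluteal replicate 1.

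In the RefSeq gene order of the assembly EquAss-T2T_v2, 5 of the 6 proteoglycans lie next to other members of their family. LUM and DCN are adjacent on chromosome 4 beside KERA and EPYC, ASPN and OGN lie on chromosome 23 on either side of OMD and next to ECM2, and FMOD lies on chromosome 25 next to PRELP and OPTC. BGN and TNMD are on chromosome X. The neighbour PRELP had means of 2.59 ± 1.43, 2.87 ± 0.688, 2.21 ± 0.0249 and 2.58 ± 1.10 FPKM (SD, n = 3 each) in Sanfen longissimus, Sanfen gluteal, Wutou longissimus and Wutou gluteal muscle, and a log2 strain difference of -0.09 in longissimus muscle. OPTC is listed at 0 in 11 of the 12 libraries. KERA and OMD had means of 0.179 and 0.499 FPKM over the 12 libraries. OPTC, KERA and OMD were not tested and were named after their values were seen. Of the 12 further small leucine-rich proteoglycans listed, 4 were tested (PRELP, EPYC, PODN and ECM2), with 1 higher and 3 lower in Wutou longissimus muscle, 0 called in limma, and a median log2 difference of -0.18. PODN (podocan) was the higher one, with means of 2.06 ± 0.611 FPKM in Sanfen and 2.78 ± 0.568 FPKM in Wutou longissimus muscle. In gluteal muscle the list again had 1 higher and 3 lower, with a median of -0.13. PODN was the higher one there too, at 1.97 ± 0.495 and 3.27 ± 0.934 FPKM (log2 difference 0.51, limma unadjusted p = 0.039, adjusted p = 0.963). Over all loci 59.3% were lower and 0.0161% passed in longissimus muscle, and 65.8% and 0.00806% in gluteal muscle.

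In none of the matrix lists around the 10 genes did a gene pass in limma in either strain comparison. Over all 12408 loci 0.0161% passed in longissimus muscle and 0.00806% in gluteal muscle. Lower fitted levels in Wutou were found for 59.3% and 65.8% of all loci, and for 50.5% and 51.1% after median-of-ratios rescaling. The counts of the gene lists stand beside these shares and were not tested. Of 10 tested thrombospondins and tendon matrix glycoproteins other than the 10 genes, 2 were higher and 8 lower in Wutou longissimus muscle, with a median of -0.55. THBS1, an activator of latent TGF-beta, was at 14.35, 8.49 and 9.24 FPKM in Sanfen longissimus and at 5.03, 1.535 and 2.60 FPKM in Wutou longissimus muscle (limma adjusted p = 0.854). In gluteal muscle THBS1 was at 22.6, 3.50 and 3.98 FPKM in Sanfen and at 7.135, 2.97 and 3.58 FPKM in Wutou, where the groups overlap. TNC (tenascin C), abundant in tendon, had means of 2.05 ± 0.774 and 0.810 ± 0.152 FPKM in Sanfen and Wutou longissimus muscle, and CLU (clusterin) 16.9 ± 5.45 and 7.96 ± 1.87 FPKM (SD, n = 3 each).

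Of 9 tested fibrillar and fibril-associated collagens, 4 were higher and 5 lower in Wutou longissimus muscle with a median of -0.38, and 6 were higher and 3 lower in gluteal muscle with a median of 0.08. COL12A1 was at 7.29, 5.94 and 9.87 FPKM in Sanfen longissimus and at 2.44, 1.23 and 2.21 FPKM in Wutou longissimus muscle, without overlap (limma adjusted p = 0.839). In gluteal muscle its means were 8.90 ± 7.73 FPKM in Sanfen and 3.67 ± 0.816 FPKM in Wutou (SD, n = 3 each), and the groups overlapped. COL5A3 and COL5A2 were higher in Wutou, with log2 differences of 0.41 and 0.13 in longissimus muscle. In gluteal muscle these were 0.22 and 0.08. COL22A1, a collagen known from the junction of muscle fibre and tendon, was at 0.0353, 1.13 and 1.74 FPKM in Sanfen longissimus and between 0.0277 and 0.0667 FPKM in Wutou longissimus muscle (limma adjusted p = 0.854). In Sanfen gluteal muscle COL22A1 was at 1.67, 0.333 and 0.731 FPKM. Its 3 libraries above 1 FPKM were the same 3 in which COMP exceeded 1 FPKM, Sanfen longissimus replicates 2 and 3 and Sanfen gluteal replicate 1. Like COMP, COL22A1 thus entered the tests only through the strain in which it is high. Its place among the lower collagens says nothing beyond its values, and the match with COMP was not tested. CILP2, a relative of the cartilage intermediate layer protein, exceeded 1 FPKM in the same 3 libraries, at 1.40, 1.72 and 2.94 FPKM, and was at most 0.163 FPKM in the other 9. It was named after its values were seen and, like COL22A1, reached the filter only through Sanfen libraries.

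Of the remaining lists, 18 tested genes of collagen processing and cross-linking had 10 higher and 8 lower in Wutou longissimus muscle (median 0.03), and 13 genes of chondroitin, dermatan and keratan sulfate synthesis had 5 higher and 8 lower (median -0.08). Genes of TGF-beta ligands, receptors and targets numbered 6 higher and 11 lower (median -0.43), and matrix proteases and inhibitors 1 higher and 10 lower (median -0.34). In gluteal muscle the TGF-beta list had 7 higher and 10 lower with a median of -0.06, and the protease and inhibitor list 2 higher and 9 lower with a median of -0.35. TIMP2, an inhibitor of matrix metalloproteinases, had means of 4.94 ± 0.591 FPKM in Sanfen and 2.90 ± 1.39 FPKM in Wutou longissimus muscle (SD, n = 3 each). The 16 tested matrix and fibronectin receptors had 5 higher and 11 lower in both muscles, with medians of -0.17 and -0.11. Over all loci 59.3% were lower in longissimus muscle and 65.8% in gluteal muscle. The 4 tested large matrix proteoglycans ran the other way, with 3 higher and 1 lower in each muscle: HSPG2 (perlecan), of basement membranes, had means of 10.6 ± 4.43 FPKM in Sanfen and 14.1 ± 0.603 FPKM in Wutou longissimus muscle. The 4 tested tendon transcription factors had 1 higher and 3 lower in longissimus muscle (median -0.37). In gluteal muscle 3 were higher and 1 lower (median 0.03). MKX, known for its role in tendon, had a mean of 0.08 FPKM over the 12 libraries and was outside the naming rule.

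Markers of the cells that could carry these transcripts were summed in each library. For 17 fibroblast markers, of which 16 were tested, the sum was between 105.5 and 158.6 FPKM in longissimus muscle of Sanfen and 106.3 and 135.2 FPKM in that of Wutou. In gluteal muscle it was between 118.3 and 153.8 FPKM in Sanfen and 93.1 and 146.5 FPKM in Wutou. The fibroblast sums overlapped between the strains. The summed level of the 10 genes was between 130.3 and 273.3 FPKM in Sanfen and between 91.5 and 117.2 FPKM in Wutou, without overlap. That sum was mostly DCN, THBS4 and FN1, with median shares of 41.88%, 27.15% and 20.45% over the libraries. Both lists were chosen with earlier results of these data known. In longissimus muscle 7 of the 16 tested fibroblast markers were higher and 9 lower in Wutou (median -0.06), against 59.3% of all loci lower. In gluteal muscle 4 were higher and 12 lower (median -0.09), against 65.8% of all loci lower. Of 14 cartilage markers 4 were tested, and the sum over all 14 was between 7.08 and 9.61 FPKM in every library. Of the 4 tested, 1 was higher and 3 lower in Wutou in each muscle. COL9A2, 1 of the 2 with the highest mean, averaged 1.55 ± 0.481 FPKM in Sanfen and 2.01 ± 1.23 FPKM in Wutou longissimus muscle (SD, n = 3 each). In gluteal muscle it averaged 0.784 ± 0.588 FPKM in Sanfen and 0.588 ± 0.329 FPKM in Wutou. SOX6, the other of these 2, averaged 4.17 ± 1.82 FPKM in Sanfen and 3.17 ± 0.694 FPKM in Wutou longissimus muscle. Its gluteal means were 4.50 ± 1.31 FPKM in Sanfen and 4.78 ± 1.235 FPKM in Wutou. COL9A2 was thus the higher one in longissimus muscle and SOX6 the higher one in gluteal muscle. MATN1 is listed at 0 in 11 libraries, and COL2A1 was at most 0.155 FPKM. ACAN (aggrecan) was highest in the 3 libraries in which COMP exceeded 1 FPKM, at 0.0550, 0.115 and 0.147 FPKM in Sanfen longissimus replicates 2 and 3 and Sanfen gluteal replicate 1, and at most 0.0191 FPKM in the other 9. COL11A1, a collagen chain of cartilage and other tissues, was likewise highest there, at 0.200, 0.647 and 0.744 FPKM, and at most 0.0828 FPKM in the other 9. COL11A1 is not one of the 14 cartilage markers. MATN1, COL2A1, ACAN and COL11A1 were named after their values were seen, and the part of cartilage genes in the COMP levels was not tested.

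The summed level of 7 Schwann cell markers was between 8.32 and 18.3 FPKM in Sanfen and between 4.73 and 8.96 FPKM in Wutou, with a narrow overlap, and 3 of 3 tested were lower in Wutou in both muscles, with medians of -0.39 and -0.86. PMP22, a myelin protein that fibroblasts also express, had means of 5.15 ± 1.33 and 2.32 ± 1.11 FPKM in Sanfen and Wutou longissimus muscle. Adipocyte marker sums were between 27.0 and 84.4 FPKM in Sanfen gluteal muscle and between 21.9 and 43.8 FPKM in the other groups. Of 7 tested adipocyte markers 1 was higher and 6 lower in Wutou longissimus muscle (median -0.44), and 2 were higher and 5 lower in Wutou gluteal muscle (median -0.27). Smooth muscle and pericyte markers had 8 higher and 3 lower in Wutou longissimus muscle, and endothelial markers 5 and 6. Leukocyte markers had 3 and 3 there, and satellite cell markers 1 and 3. In gluteal muscle these lists had, in the same order, 3 and 8, 3 and 8, 2 and 4, and 1 and 3. Over all loci 59.3% were lower in longissimus muscle and 65.8% in gluteal muscle. The labelled tissue was borne out by its markers: all 22 muscle fibre markers with a row of their own name were tested, and their sum was between 42180 and 57150 FPKM in every library. In longissimus muscle that sum was between 44280 and 51110 FPKM in Sanfen and between 50190 and 57150 FPKM in Wutou, with overlap. The part of these cell types in the strain differences of the 10 genes was not tested.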

How the data were processed

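RNA was extracted with Trizol from frozen muscle and made into Illumina libraries, per the labels' protocols. The submitters' processing notes name cutadapt, Bowtie2 and TopHat2; the genome build, annotation and counting program are not given in the sources used here. One deposited table gives FPKM values, which the authors normalized to transcript length and to the fragments of each library; it holds no counts, so no count model was used. Loci that reached 1 FPKM in 3 or more libraries were tested on log2(FPKM + 1) with limma 3.58.1 (R 4.3.3) across all 12 libraries, with 4 group means, a mean-variance trend and Benjamini-Hochberg adjustment over 12408 loci. A pseudocount of 1 understates changes of low genes. The strain difference averaged over muscles was added after seeing the data, with a random block for same-numbered libraries of a strain (consensus correlation 0.188, statmod 1.5.0).

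No label says that a replicate number marks a donkey. Same-numbered Sanfen libraries of the 2 muscles deviated together (r = 0.246, 0.110 and 0.158), so the numbers may pair those libraries; with the replicate block, the Sanfen muscle comparison called 1 locus against 3 without it. In Wutou r was 0.182, 0.165 and 0.0711, short of the limit of 0.1 in 1 pair. Differently numbered libraries gave r between -0.149 and -0.000829 in Sanfen and between -0.169 and 0.0126 in Wutou, so the Wutou numbers may mark pairs too. The members and gene lists were chosen with earlier results of these data known. Genes open to naming were the 10 members, up to 3 tested genes per list with the smallest unadjusted p in the longissimus strain comparison or the averaged muscle comparison, the 2 most abundant genes of each marker list, and the 5 symbols most correlated with FMOD and with the mean profile. Not all genes that met this rule are printed, and genes outside it are marked where they appear. Summed FPKM of markers and ratios were taken without transformation. The limma script was checked on simulated data. Alternatives were another pseudocount, filter, scaling, block, set of libraries and leaving out each library.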

Additional observations from a re-analysis of the deposited data

How the results depend on the processing

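Of the strain and muscle differences printed for single genes, recomputed under each alternative, 532 values kept their direction and their side of the threshold, 12 reversed and 2 came to pass it. Many of the 532 could not change direction. A replicate block, a fit to only the libraries compared, or leaving out a library of another group leaves a log2 difference as it was. The 532 is therefore no measure of stability. Over all differences of the 9 tested genes, printed or not, 1152 values stayed, 87 reversed and 2 came to pass. OGN in gluteal muscle reversed from -0.01 to 0.087 with median-of-ratios rescaling and to 0.074 with quantile normalization. Leaving out each library in turn moved the longissimus strain difference between -0.41 and 0.12 for ASPN, -0.45 and 0.18 for DCN, and -0.37 and 0.15 for LUM. It moved the gluteal strain difference between -0.41 and 0.17 for ASPN, -0.20 and 0.19 for OGN, -0.39 and 0.13 for BGN, and -0.26 and 0.056 for LUM. Counts of loci called by limma were small and moved with most settings. For the longissimus strain comparison, with 2 loci, a pseudocount of 0.1 gave 6, no filter 4, a filter at 5 FPKM 0, only the libraries compared 7, and leaving out each library 0 to 6; the count among the 9 genes went from 0 to 1 (FMOD) with a pseudocount of 0.1 and from 0 to 1 over libraries left out. For the gluteal strain comparison, with 1 locus, a pseudocount of 0.1, a filter at 5 FPKM, median-of-ratios rescaling and quantile normalization each gave 0, only the libraries compared 2, and leaving out libraries 0 to 3. For the muscle comparison in Sanfen, with 3 loci, a pseudocount of 0.1 and no filter each gave 5, a filter at 5 FPKM 1, the fixed replicate block 1, and leaving out libraries 0 to 5. In Wutou, with 0 loci, the random replicate block gave 3, only the libraries compared 1, and leaving out libraries 0 to 2. The averaged muscle comparison, with 0 loci, gave 1 with no filter and 0 to 4 over libraries left out, and the averaged strain comparison, with 0 loci, gave 1 with no filter and 0 to 1. The difference between the muscle contrasts, with 1 locus, gave 2 with no filter, with quantile normalization and with the random replicate block, 0 with a filter at 5 FPKM, and 1 to 5 over libraries left out. The replicate block changed no call among the 9 genes. The causes of these moves were not tested. Depth is unknown from FPKM alone, and values under 1 FPKM, as for COMP and TNMD in Wutou, may rest on few fragments, which limits what can be said of their fold.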
